A study of Drosophila melanogaster with 28 samples.

Results

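The olfactory (Or), gustatory (Gr) and ionotropic (Ir) receptor genes of Drosophila melanogaster were followed through chromatin profiles of testis tumours. Members were the protein-coding genes of the Release 6 annotation whose symbol is Or, Gr or Ir followed by a digit. This gave 179 of 13968 genes, made up of 59 Or, 60 Gr and 60 Ir genes. On the X chromosome lay 25 of them and on chromosomes 2 and 3 the other 154. The co-receptor Orco has no digit in its symbol and was counted with other chemosensory genes.

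Germline tumours, labelled Nanos-Upd, carried y[1] w[1118] and P{hs70FLP} on the X chromosome, GAL4::VP16-nanos.UTR over UAS-Upd, and 1 copy of UAS-FRT-H3-GFP-FRT-H3-mKO. Cyst tumours, labelled TrafficJam-Upd, carried w[1118], traffic Jam-GAL4 over UAS-Upd, and the same histone transgene. The nanos driver acts in germline stem cells and their early daughters, and the traffic jam driver in somatic cyst cells. Both tumour types thus overexpressed Upd, a ligand of the JAK-STAT pathway, and both carried tagged histone H3. An antibody to GFP directed micrococcal nuclease to chromatin of the cells that expressed the tagged histone (ChIC), and the released chromatin was precipitated for 1 histone mark (ChIP). Each preparation pooled the testes of many males and gave 1 IP and 1 input library. H3K4me3 and H3K9me3 had 2 replicates per tumour type and H3K27me3 had 3, which made 28 libraries. No tumour-free testis was among the libraries used here.

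Between 942943 and 18199704 fragments were recovered per library. The shallowest was the germline H3K27me3 IP of replicate 1, with a median of 7 fragments per receptor start window. H3K4me3 libraries of germline and of cyst tumours were sequenced on different flow cells, so for that mark the flow cell and the tumour cannot be told apart. Input and IP of germline H3K27me3 replicate 3 were on another flow cell than all other H3K27me3 libraries, which shared 1. The labels were set against H3K4me3 at marker genes. Of the germline markers (piwi, aub, vas, bgcn, zpg and bam), 1 of 6 was above input in germline tumours and 2 of 6 in cyst tumours. Of the cyst markers (eya, tj, ptc, wit and zfh1), 1 of 5 was above input in germline tumours and 0 of 5 in cyst tumours. H3K4me3 at these markers therefore did not separate the tumour types in the direction of their labels. Of 5 neuron markers, 0 were above input in either tumour type, with medians of 0.44 in germline and 0.30 in cyst tumours (log2 IP minus input). Germline markers had medians of -0.16 in germline and 0.10 in cyst tumours. Of 2 fat body markers 1 was above input in each tumour type, and of 2 hub markers 1 in cyst tumours only. Of 3 muscle markers 0 were above input in either. Of all genes tested, 20.8% were above input in germline and 27.7% in cyst tumours.

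Insects detect smells and tastes mainly through these receptor families. Or proteins form odour-gated ion channels with the co-receptor Orco, and each olfactory neuron usually expresses 1 of them. Gr proteins detect sugars, bitter compounds and carbon dioxide. Ir proteins are relatives of ionotropic glutamate receptors that detect acids, amines, temperature and humidity together with co-receptors. H3K4me3 marks the starts of active genes, H3K27me3 is deposited by Polycomb complexes on silent developmental genes, and H3K9me3 marks heterochromatin. In mouse, silent olfactory receptor genes carry H3K9me3.

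Receptor genes were shorter than genes at large and lay farther from other starts. Their median length was 1691 bp, against 2164 bp for all protein-coding genes. The nearest start of another gene lay a median of 2206 bp away, against 1499 bp for all genes. Another gene overlapped 45 of the 179 (25.1%), against 41.4% of all genes, and 30 lay inside another gene. The median GC content of the 1000-bp window around the start was 42.2%, against 42.4% for all genes. For 132 of the 179 (73.7%) the annotated start was the first base of the start codon, which held for 3.77% of all genes. A start window of such a gene is centred on the coding sequence, and these annotations do not give where its transcript begins.

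Sequences around the annotated start show this difference in annotation, 15 bases before it and 15 from it on, read on the gene's strand from the RefSeq Release 6 (dm6) genome. Capitals mark the start codon, or in Gr61a the initiator core TCAGT.
Or2a (chrX:2246216-2246245, plus strand): aaggtaaccgagacaATGgagaagcaagag
Or67d (chr3L:10273189-10273218, plus strand): catagctaacaaacaATGttgaaaatggca
Ir62a (chr3L:1531245-1531274, minus strand): ggttcacgagcgaaaATGtatcttcagttt
Ir94a (chr3R:22113412-22113441, plus strand): tggctaaagtagaaaATGgctttaccgaag
Gr61a (chr3L:841436-841465, plus strand): agttgtTCAGTacttcaaacatgtattgct
Or19a (chrX:20143174-20143203, minus strand): aagaggcgaacaaccATGgacatatcgaag
Or19b (chrX:20094383-20094412, plus strand): aagaggcgaacaaccATGgacatatcgaag
In Or2a, Or67d, Ir62a and Ir94a the annotated start is the start codon, whereas the start codon of Gr61a lies 267 bp downstream. Over the 300 bases from 250 before to 50 after the start, counted on both strands, TCAGT occurred in 50.8% of receptor genes and 51.5% of all genes. TATAAA occurred in 54.2% of receptor genes and 45.8% of all genes. The DRE core TATCGATA occurred in 1 receptor gene (0.559%) and in 9.36% of all genes, and GAGAG in 20.1% of receptor genes and 29.7% of all genes.

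The printed starts of Or19a and Or19b, which encode receptors for citrus odours, are identical. The pair shares 1363 of 1370 bases over the whole gene, with 7 mismatches and no gap. Across the 28 libraries Or19a had 0 to 3 fragments over its body and 0 to 2 in its start window. Or19b had 0 to 4 over its body and 0 to 10 in its start window, with 6 and 7 in the germline H3K9me3 IP libraries, 10 in each of their inputs and at most 2 in any other library. Both fell under the minimum of a mean of 10 fragments per library, whatever the mark, and the handling of multiply aligned reads is not given in the sources used here. Tests covered the remaining 177 members, including 23 on the X chromosome, which passed this minimum for every mark.

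H3K4me3 was close to the input level over receptor starts in both tumour types and rose less downstream of the start than at other genes. Fragments of all starts in a group were pooled per library, and log2 IP/input between 40 and 200 bp downstream was set against the flanks. The difference for receptor genes was 0.23 ± 0.006 in germline and 0.15 ± 0.04 in cyst tumours (SD, n = 2 each). For all other genes it was 0.58 ± 0.08 and 0.69 ± 0.24 in germline and cyst tumours. Ribosomal protein genes, which are active in all cells, reached 0.73 ± 0.14 in germline and 1.04 ± 0.01 in cyst tumours. Cuticle genes, which serve other differentiated tissues, had 0.26 ± 0.02 in germline and 0.30 ± 0.07 in cyst tumours. The input itself rose downstream of other starts more than downstream of receptor starts. Its log2 ratio of downstream to flanking signal was 0.13 ± 0.11 for receptor genes in germline and 0.10 ± 0.05 in cyst tumours, against 0.39 ± 0.20 and 0.64 ± 0.14 for other genes (SD, n = 7 inputs each).

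**Figure D1:**
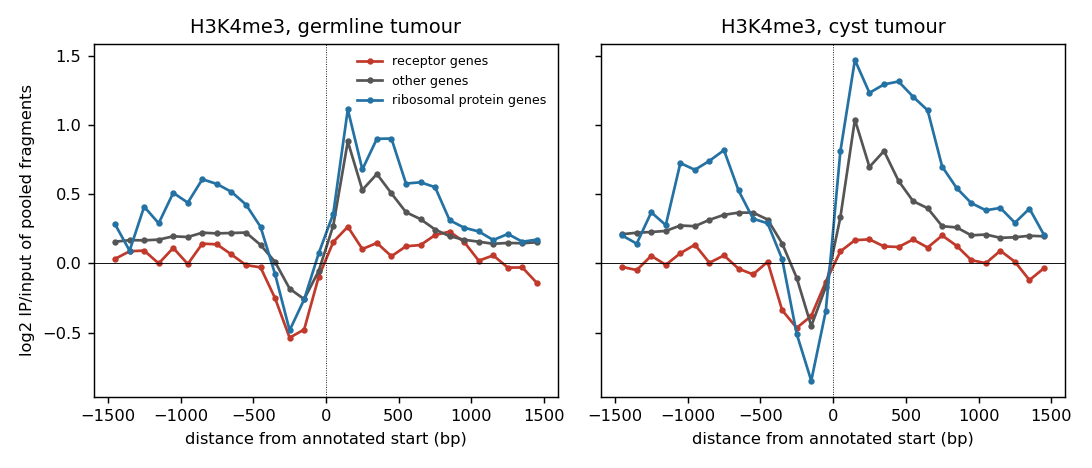
H3K4me3 around annotated starts, in germline (left) and cyst tumours (right). The vertical axis is log2 IP/input of pooled fragments in 100-bp steps and the horizontal axis the distance from the start in bp. Lines are receptor genes, other genes and ribosomal protein genes. At 150 bp downstream the receptor line stands at 0.27 in germline and 0.17 in cyst tumours, below both other lines.

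Few receptor genes had H3K4me3 above input at their start. A gene was called above or below input at an adjusted p under 0.05 and a fold over 1.5, from limma fitted on log2(signal + 0.1) over the window from 500 bp before to 500 bp after the start. Above input were 3 of 177 (1.69%) in germline tumours, where 20.8% of all tested genes were called, and 8 of 177 (4.52%) in cyst tumours, where 27.7% were. Below input were 13 (7.34%) in germline tumours, against 4.52% of all genes, and 9 (5.08%) in cyst tumours, against 3.58%. The median log2 IP minus input of receptor genes was -0.06 in germline and -0.08 in cyst tumours, against 0.21 and 0.26 over all genes. Scaling by TMM moved the median of all genes by over 0.1, to -0.01 in germline and 0.00 in cyst tumours. The receptor median minus that of all genes was -0.28 in germline and -0.33 in cyst tumours under TMM, and -0.27 and -0.33 without it. In the narrower window from 40 to 200 bp downstream, where 81 receptor genes passed the minimum, 2 were above and 2 below input in each tumour type. Of all genes tested there, 35.5% were above and 1.97% below input in germline tumours, and 44.0% and 2.36% in cyst tumours. TMM changed the calls around starts to 0 above and 33 below in germline tumours and to 2 above and 37 below in cyst tumours. Of all genes, 10.0% were above and 10.5% below input under TMM in germline tumours, and 14.4% and 10.8% in cyst tumours.

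By family, medians in germline tumours were -0.14 for Or, 0.05 for Gr and -0.04 for Ir genes. Those in cyst tumours were -0.10 for Or, -0.04 for Gr and -0.08 for Ir genes. The positive Gr median in germline tumours became -0.17 under TMM. Above input in germline tumours were 1 Or, 2 Gr and 0 Ir genes, and in cyst tumours 2 Or, 3 Gr and 3 Ir genes. Below input in germline tumours were 2 Or, 3 Gr and 8 Ir genes, and in cyst tumours 5 Or, 0 Gr and 4 Ir genes. Of all genes, 20.8% were above and 4.52% below input in germline tumours, and 27.7% and 3.58% in cyst tumours. Receptor starts below input had a low GC content (medians of 34.2% in germline and 35.0% in cyst tumours), as described below. Differences between families were not tested.

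**Figure D2:**
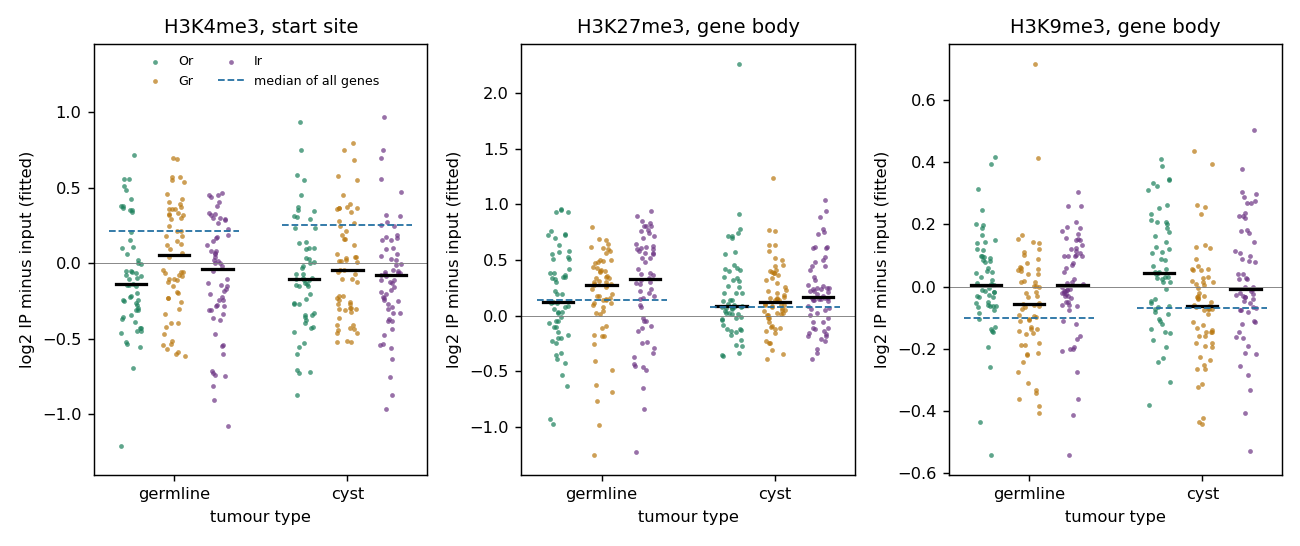
Fitted log2 IP minus input of each tested receptor gene (points) by family, in germline (left of each panel) and cyst tumours (right), for H3K4me3 at starts and H3K27me3 and H3K9me3 over gene bodies. Black bars are family medians and dashed lines the median of all genes. Or, Gr and Ir H3K4me3 medians all lie under the dashed lines at 0.21 and 0.26, and the highest H3K27me3 point, at 2.27, is Or2a in cyst tumours.

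Neighbouring genes and annotation were set beside these counts. Of the 112 tested receptor genes with no other start within 1 kb and no overlap, 3 (2.68%) were above input in germline tumours and 4 (3.57%) in cyst tumours. Among other genes so placed the shares were 10.7% and 14.4% in germline and cyst tumours. Receptor genes whose start is the start codon were above input in 2 of 130 cases (1.54%) in germline and 7 of 130 (5.38%) in cyst tumours. Other genes with that annotation were above input in 6.48% of cases in germline and 5.96% in cyst tumours. Below input were 7.69% of such receptor genes in germline and 6.15% in cyst tumours, against 18.1% and 10.1% of such other genes. Medians were -0.105 in germline and -0.102 in cyst tumours for these receptor genes, and -0.146 and -0.076 for these other genes. Among genes so annotated, receptor genes were thus not more often below input than others. Of the 47 receptor genes with a start upstream of the start codon, 1 (2.13%) was above input in each tumour type, against 21.5% in germline and 28.5% in cyst tumours for other genes.

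The 3 receptor genes above input in germline tumours were Or7a, Gr21a and Gr89a. Or7a, an antennal odour receptor, had log2 IP/input of 0.90 and 0.86 in the germline replicates, against 0.39 and 0.90 in the cyst replicates. Its fitted value was 0.72 ± 0.26 (SE) in germline tumours (limma adjusted p = 0.044). Gr21a, a subunit of the carbon dioxide receptor, had 0.62 and 0.96 in germline and 0.71 and 0.02 in cyst replicates, with a fitted 0.69 ± 0.23 in germline tumours (limma adjusted p = 0.0259). Gr89a had 0.87 and 0.68 in germline and 0.29 and 0.50 in cyst replicates, with a fitted 0.69 ± 0.20 in germline tumours (limma adjusted p = 0.0111). Germline and cyst replicates overlapped for Or7a and Gr21a. Those of Gr89a, picked for its germline value, did not overlap and were higher in germline, as for 17.9% of all genes. None of the 3 was past the threshold without germline replicate 1 or without germline replicate 2.

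The largest value in cyst tumours was that of Ir62a. It had 0.35 and 0.45 in germline and 0.93 and 1.19 in cyst replicates, with a fitted 0.96 ± 0.21 in cyst tumours (limma adjusted p = 0.00106). Ir62a lies inside Iml1. Or2a, an antennal receptor, had 0.46 and 0.33 in germline and 1.06 and 0.88 in cyst replicates, with a fitted 0.93 ± 0.21 in cyst tumours (limma adjusted p = 0.00132). Its start window held 113 and 133 IP and 50 and 59 input fragments in cyst tumours. Gr61a, of the sugar receptor clade, had 0.63 and 0.44 in germline and 0.86 and 0.82 in cyst replicates, with a fitted 0.80 ± 0.20 in cyst tumours (limma adjusted p = 0.00309). All 3 genes, picked for their cyst values, were higher in every cyst than in every germline replicate, as were 21.1% of all genes. Gr63a, the other carbon dioxide subunit, had a fitted 0.75 ± 0.21 in cyst tumours (limma adjusted p = 0.00733), and Or45b, Ir7e, Ir60e and Gr10b, named here after their values were seen, completed the 8. The starts of Gr61a, Gr63a and Ir60e lie 91, 297 and 322 bp from that of another gene (JMJD5, Lamtor4 and CG13585), as 20 of the 179 receptor starts lie within 500 bp of one. Whether the signal belongs to the receptor or to its neighbour was not tested. No receptor gene was above input in both tumour types, and the share of all genes called in both was not counted.

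Or67d, the receptor for the male pheromone cis-vaccenyl acetate, was lowest in germline tumours. Its replicates had log2 IP/input of -1.47 and -1.06 in germline and -0.93 and -0.64 in cyst tumours. The fitted values were -1.21 ± 0.21 in germline (limma adjusted p = 0.000258) and -0.72 ± 0.21 in cyst tumours (limma adjusted p = 0.0085). Ir94a had -1.36 and -0.86 in germline and -0.94 and -0.67 in cyst replicates. Its fitted value was -1.08 ± 0.20 in germline and -0.75 ± 0.20 in cyst tumours, with limma adjusted p-values of 0.000508 and 0.00485. The antennal receptor Ir31a had -1.15 and -0.71 in germline and -0.79 and -1.23 in cyst replicates. Ir41a, an antennal amine receptor, had -0.90 and -0.61 in germline and -0.81 and -1.12 in cyst replicates. Or83c, which detects farnesol, had -1.13 and 0.08 in germline replicates, which lie on either side of 0, and -0.78 and -1.09 in cyst replicates. Or67d, Ir31a, Ir41a, Ir94a and Ir94b were below input in both tumour types, and the share of all genes below in both was not counted.

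H3K4me3 log2 IP/input followed the base composition of the window. Across the 177 receptor genes its Spearman correlation with GC content was 0.80 in germline and 0.63 in cyst tumours, against 0.62 and 0.44 across other genes. These are correlations across genes of the same libraries, which are not independent replicates. Receptor starts below input had a median GC content of 34.2% in germline and 35.0% in cyst tumours, and those above input 51.1% and 45.4%. After a smooth curve on GC content was subtracted from each library, 0 receptor genes were above and 1 below input in germline tumours, where 17.4% and 0.321% of all genes were. In cyst tumours 8 were above and 1 below after this step, against 28.3% and 1.03% of all genes. Or67d has 35.9% GC in its window and Ir31a 29.2%. Ir31a and Ir41a stood at 0.15 and 0.22 in germline tumours after the adjustment and were no longer past the threshold. The receptor median then stood at 0.01 in germline and -0.02 in cyst tumours, against 0.24 and 0.28 over all genes.

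**Figure D3:**
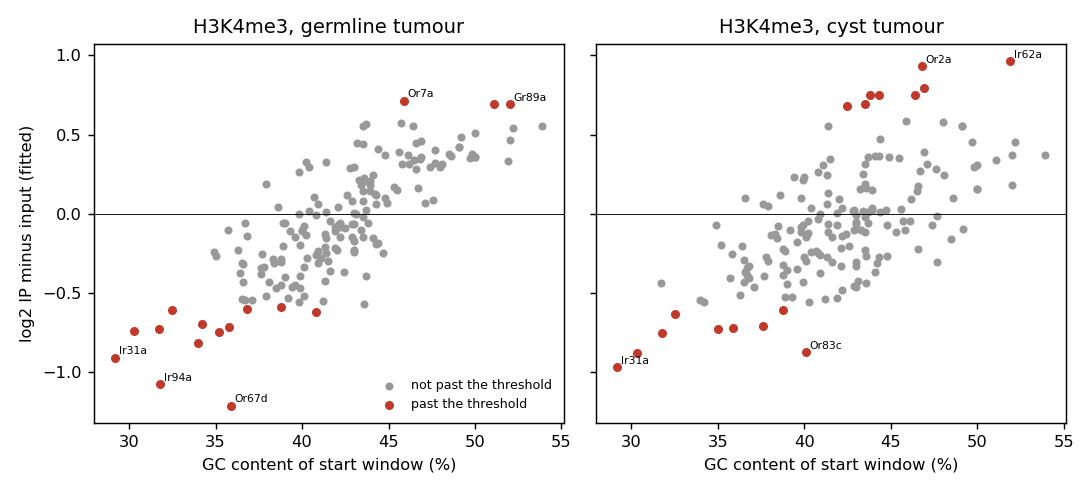
H3K4me3 of each tested receptor gene (fitted log2 IP minus input) against the GC content of its start window (%), in germline (left) and cyst tumours (right). Red points are past the threshold. Points rise with GC content in both panels (Spearman correlations of 0.80 and 0.63), and Or2a and Ir62a lie at the top of the cyst panel.

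Most genes listed by sensory role were not past the threshold for H3K4me3. Of the 23 tested, 5 were called in at least 1 tumour type, namely Gr21a, Gr63a, Or2a and Or67d, described above, and Ir21a. The share of all genes called in at least 1 tumour type was not counted. Of the co-receptors, Ir8a and Ir76b had fitted H3K4me3 values of 0.33 and 0.47 in germline and -0.06 and 0.18 in cyst tumours. Ir25a, the most widely used co-receptor, had -0.55 in germline and -0.54 in cyst tumours, short of the fold asked for. The sugar receptors Gr5a, Gr43a and Gr64f had 0.33, 0.32 and 0.57 in germline and -0.12, 0.24 and -0.06 in cyst tumours. The bitter receptors Gr33a and Gr66a had -0.10 and -0.08 in germline and -0.41 and 0.01 in cyst tumours. None of these 8 passed the threshold in either tumour type. Among odour receptors, Or22a (fruit esters) had -0.56 in germline and -0.11 in cyst tumours, Or42b (vinegar) 0.35 and 0.45, Or47b (a fly pheromone) 0.15 and 0.35, and Or56a (geosmin) -0.31 and -0.001. Of the temperature and humidity receptors, Ir21a, needed for cool sensing, was below input in germline tumours, with replicates at -1.0 and -0.52 and a fitted -0.75 ± 0.20 (limma adjusted p = 0.00812). In cyst replicates Ir21a had -0.26 and -0.16, which did not pass. Ir40a, Ir93a and Gr28b lay between -0.29 and 0.22 in germline and between -0.13 and 0.03 in cyst tumours. The acid and amine receptors Ir64a, Ir84a and Ir92a had 0.45, -0.02 and -0.15 in germline and -0.22, -0.23 and -0.18 in cyst tumours.

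The list of other chemosensory genes holds odorant-binding proteins (Obp), CheA and CheB genes, Orco and others. Above input were 2 of 78 (2.56%) in germline and 4 of 78 (5.13%) in cyst tumours, against 20.8% and 27.7% of all genes. Below input were 5 of 78 in germline and 8 of 78 in cyst tumours, where 4.52% and 3.58% of all genes were. Obp59a had a fitted 0.89 ± 0.21 in germline and 1.01 ± 0.21 in cyst tumours. Of 11 transcription factors that act in receptor choice, pdm3 was above input in germline tumours at 0.86 ± 0.21 (limma adjusted p = 0.00387), and none was in cyst tumours. Cuticle genes were above input in 17 of 92 cases (18.5%) in germline and 14 of 92 (15.2%) in cyst tumours. For ribosomal protein genes the counts were 27 of 88 (30.7%) in germline and 42 of 88 (47.7%) in cyst tumours.

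No receptor gene was called different in H3K4me3 between germline and cyst tumours. The limma test of the difference called 0 of 177 receptor genes, as it called 0.0% of all 13686 genes. At an unadjusted p under 0.05 there were 13, against 1343 of all genes, and edgeR on the recovered fragments called 0 receptor genes. Replicates of the tumour types did not overlap for 42 receptor genes higher in germline (23.7%, against 17.9% of all genes) and for 30 lower in germline (16.9%, against 21.1%). Ir64a, Gr64f and Or9a had fitted differences of 0.67, 0.63 and -0.64 (germline minus cyst). In bulk chromatin a mark on few of the copies and a weaker mark on all copies cannot be told apart.

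The median H3K27me3 over receptor bodies was above that of genes at large in the fit and in 5 of 6 replicates, with no receptor gene past the threshold. The median log2 IP minus input was 0.27 in germline and 0.14 in cyst tumours, against 0.14 and 0.08 over all genes. Cuticle genes had 0.55 in germline and 0.31 in cyst tumours, and ribosomal protein genes -0.21 and -0.37. Replicate medians of receptor genes ranged from 0.21 to 0.40 in germline and from 0.10 to 0.24 in cyst tumours. Those of other genes ranged from -0.04 to 0.45 in germline and from 0.03 to 0.13 in cyst tumours, and in germline replicate 1 the receptor median of 0.40 was below the 0.45 of other genes. In cyst replicate 3 the medians were close, at 0.10 and 0.09. Around starts the receptor median was below that of other genes in germline replicates 1 and 3, at 0.11 against 0.22 and 0.07 against 0.16. It was above in germline replicate 2, at 0.06 against -0.37, and in each cyst replicate. Over bodies 0 of 177 receptor genes were above input by limma in both tumour types. Of all genes, 0.0% were called there in germline and 0.0514% in cyst tumours. As the test called no gene at all in germline tumours, it does not separate receptor genes from others there. Unadjusted p-values under 0.05 were found for 50 of 177 receptor genes in germline and 32 in cyst tumours, against 2645 and 2187 of all 13622 genes. By edgeR 0 receptor genes were above input in germline, as were 0.0% of all genes, and 5 (2.82%) in cyst tumours, against 1.18%. The test pools the spread of all libraries of the mark. Without germline replicate 1, the shallowest, limma called 19 of 177 receptor genes (10.7%) above input in cyst tumours, against 7.25% of all genes, and 0 in germline tumours. Of these 19, 9 lay on the X chromosome, as did 23 of the 177 tested receptor genes. The X-linked share of all genes called in that fit was not counted. Other X-linked genes also had a higher cyst median than other genes on chromosomes 2 and 3, by 0.18.

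Or2a (chrX:2246231-2247567) had the highest H3K27me3 value of the tested receptor genes. Over its body the replicates had log2 IP/input of 1.95, 0.34 and 0.12 in germline and 1.49, 2.51 and 3.09 in cyst tumours. Cyst IP libraries held 113, 149 and 209 fragments there and cyst inputs 28, 40 and 35, while germline IP libraries held 25, 33 and 113 and germline inputs 46, 32 and 108. The fitted value was 0.73 ± 0.42 in germline and 2.27 ± 0.42 in cyst tumours, where the limma adjusted p was 0.0892 and the edgeR adjusted p 0.00807. Around its start, cyst replicates had 0.64, 2.56 and 2.85, and Or2a was the only receptor gene called there in cyst tumours, at 1.97 ± 0.37 (limma adjusted p = 0.0416), among 0.0512% of all genes. The germline value around the start was 0.23 ± 0.37. The difference of germline minus cyst for Or2a, -1.53 ± 0.60 over the body, did not pass (limma adjusted p = 0.997). The genes that flank Or2a had lower values in cyst tumours, 0.60 ± 0.23 for fs(1)K10 and 0.62 ± 0.40 for crn. Their H3K4me3 starts in cyst tumours were above input at 1.63 for fs(1)K10 and 1.24 for crn. Ir31a was low in H3K27me3 around its start, with -1.92 and -1.89 in germline replicates 2 and 3 and -1.15, -1.53 and -0.57 in cyst replicates. In germline replicate 1 its start held 0 IP and 45 input fragments, and neither tumour type passed (limma adjusted p = 0.227 and 0.37).

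Gr5a, the trehalose receptor, came second in cyst tumours. It had 1.14, 0.58 and 0.36 in germline and 0.97, 2.32 and 0.83 in cyst replicates, with a fitted 0.56 ± 0.26 in germline and 1.24 ± 0.26 in cyst tumours (limma adjusted p = 0.0895 in cyst, edgeR adjusted p = 0.0222). Cyst replicates had 1.17, 1.32 and 0.90 for Ir68b, 1.20, 0.87 and 0.73 for Ir67a, and 0.68, 0.94 and 0.82 for Or45b. These 5 genes were the edgeR calls. Or42b, Ir8a and Gr21a had 0.96, 0.81 and 0.80 in germline tumours, none past the threshold, and replicate 1 was the highest of the 3 germline replicates for each. Across receptor genes, the Spearman correlation of H3K27me3 with GC content of the body was 0.85 in germline and 0.68 in cyst tumours. Across other genes it was 0.71 in germline and 0.60 in cyst tumours. After GC adjustment the receptor median was 0.27 in germline and 0.22 in cyst tumours, against 0.13 and 0.11 over all genes. That fit called 0 receptor genes above input, as did the unadjusted one, and 0.0% of all genes in germline and 0.00734% in cyst tumours. The difference between tumour types was called for 0 receptor genes by limma and by edgeR, and 8 had an unadjusted p under 0.05, against 427 of all 13622 genes. Replicates did not overlap for 20 receptor genes higher in germline (11.3%, against 7.39% of all genes) and 10 lower in germline (5.65%, against 5.08%).

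**Figure D4:**
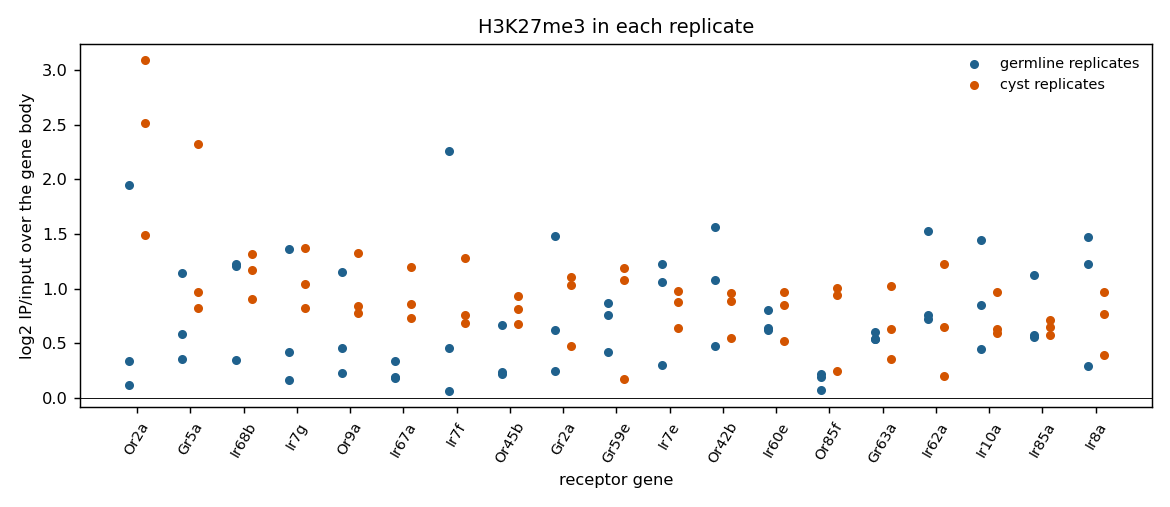
H3K27me3 log2 IP/input over the gene body in each germline (left of each pair) and cyst replicate (right) for the 19 receptor genes called in cyst tumours without germline replicate 1. The vertical axis is log2 IP/input, and genes run from the largest fitted cyst value. Or2a reaches 1.49, 2.51 and 3.09 in cyst replicates, and single germline points stand high for Or2a and Ir7f.

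H3K9me3 over receptor bodies lay near the input in both tumour types. The median log2 IP minus input was -0.01 in germline and -0.01 in cyst tumours, against -0.10 and -0.07 over all genes. Under TMM the germline median of all genes was 0.02 and that of receptors 0.11, and the receptor median minus that of all genes was 0.09 with either scaling. Below input were 0 of 177 receptor genes in both tumour types, against 1.87% of all genes in germline and 4.15% in cyst tumours. An unadjusted p under 0.05 in either direction was found for 26 of 177 receptor genes in germline and 38 in cyst tumours, against 4562 and 4989 of all 13705 genes. By edgeR 2 receptor genes were below input in germline and 1 in cyst tumours, against 3.43% and 5.24% of all genes. Ribosomal protein genes were below input in 3 of 88 cases in germline and 13 of 88 in cyst tumours. Around starts, 1 receptor gene was below input in each tumour type, against 6.62% of all genes in germline and 26.6% in cyst tumours. These were Gr47b in germline, at -0.62 ± 0.15, and Ir31a in cyst tumours, at -1.03 ± 0.17 (limma adjusted p = 0.0124 and 6.28e-05). Above input around starts was Gr2a in germline tumours, at 0.64 ± 0.17 (limma adjusted p = 0.0145), where 0.153% of all genes were, and 0 receptor genes in cyst tumours, against 0.321%. Between tumour types, H3K9me3 around starts was higher in germline for 2.17% of all genes and for 0 of 177 receptor genes by limma, of which 6 had an unadjusted p under 0.05, against 2522 of all 13708 genes.

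Gr2a (chrX:1452430-1454177) was the only receptor gene with H3K9me3 above input over its body, and only in germline tumours, where 0.0657% of all genes were. Its replicates had 1.00 and 0.62 in germline and 0.20 and -0.26 in cyst tumours. The germline IP libraries held 179 and 142 fragments and the germline inputs 150 and 174, while cyst IP libraries held 57 and 88 and cyst inputs 130 and 147. The fitted value was 0.72 ± 0.13 in germline (limma adjusted p = 0.0224) and -0.03 ± 0.13 in cyst tumours. The call was lost with input and IP of a preparation as a replicate block, and without germline replicate 1 or germline replicate 2. The difference between the tumour types was 0.75 ± 0.18 and did not pass in limma (adjusted p = 0.283), whereas edgeR gave 0.90 (adjusted p = 0.0258), the 1 receptor gene it called. Gr2a overlaps futsch, so fragments cannot be assigned to either gene alone. Over all members 12 had an unadjusted p under 0.05 for this difference, against 1616 of all 13705 genes. Replicates did not overlap for 31 receptor genes higher in germline (17.5%, against 19.1% of all genes) and 43 lower in germline (24.3%, against 27.0%). Polycomb target genes, listed for comparison, had H3K9me3 medians of 0.24 in germline and 0.29 in cyst tumours, above the receptors.

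Input libraries report how much tagged chromatin was released. Over receptor bodies the median input signal, relative to an autosomal median near 1, ran from 1.02 to 1.24 in germline inputs, with a median of 1.17, and from 1.01 to 1.25 in cyst inputs, with a median of 1.12. The groups overlapped. Around starts the limma test of germline minus cyst over all 14 inputs called 5 of 177 receptor genes higher in germline (2.82%, against 0.905% of all genes) and 8 lower (4.52%, against 29.5%). The median difference was -0.05 for receptor genes and -0.21 for all genes. Over bodies 7 were higher and 16 lower, against 1.67% and 20.2% of all genes. The count around starts ran from 5 to 24 when 1 input was left out, and that over bodies from 13 to 31. Among inputs on shared flow cells the median difference around starts was -0.03 for receptor genes and 0 of 177 were called, as were 0.0073% higher and 0.073% lower of all genes, and 14 receptor genes had an unadjusted p under 0.05, against 2904 of all 13701 genes. Over bodies 0 of 177 receptor genes were called there by limma, against 0.0146% higher and 0.0511% lower of all genes, and 23 had an unadjusted p under 0.05, against 2513 of all 13693 genes.

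In the fit over all 14 inputs, the 5 genes called higher in germline around the start were all Or genes. On shared flow cells, with fewer libraries, no receptor gene was called around starts or over bodies. Whether the differences that follow belong to the tumour type or to the flow cell was not tested. Or22c had an input signal of 0.66, 0.85 and 1.00 in germline and 0.42, 0.60 and 0.67 in cyst inputs (lowest, median and highest of 7 each). The groups overlapped only at 0.66 to 0.67, and the difference was 0.46 ± 0.12 (log2, limma adjusted p = 0.00922). Or59b, an ester receptor, and Or59a differed by 0.385 ± 0.14 and 0.35 ± 0.11. Ir60e was lowest in germline relative to cyst inputs, at 1.19, 1.38 and 2.02 in germline and 1.69, 2.08 and 2.95 in cyst inputs, a difference of -0.59 ± 0.14 (limma adjusted p = 0.007). The co-receptor Ir8a had 0.45, 0.66 and 0.88 in germline and 0.83, 0.91 and 1.24 in cyst inputs, a difference of -0.49 ± 0.13. Ir76a, an amine receptor, differed by -0.46 ± 0.14. Over bodies Or59a, Gr68a and Or94a led those higher in germline, at 0.46, 0.41 and 0.38. Or9a on the X chromosome led those lower in germline, with 0.33, 0.40 and 0.59 in germline and 0.64, 0.75 and 0.93 in cyst inputs. Its groups did not overlap, and its difference was -0.71 ± 0.11 (limma adjusted p = 0.00361). Ir31a and Ir8a followed at -0.43 and -0.41.

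X-linked receptor genes had a lower input than those on chromosomes 2 and 3, as other X-linked genes had. Males carry a single X chromosome. The difference of median log2 input over bodies was -1.09 ± 0.11 in germline and -0.95 ± 0.12 in cyst tumours (SD, n = 7 each), against -0.89 ± 0.01 and -0.77 ± 0.05 for other genes. It ran from -1.19 to -0.93 in germline and from -1.15 to -0.82 in cyst inputs, and the tumour types overlapped. GC content of bodies differed too, with a median of 50.1% for X-linked receptors and 44.5% for those on chromosomes 2 and 3, against 46.8% and 45.6% for all genes.

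Relative to input, the medians of all 3 marks were higher on X-linked receptor genes than on those of chromosomes 2 and 3, except that germline H3K4me3 changed sign after GC adjustment. For H3K4me3 the X minus chromosomes 2 and 3 difference of medians was 0.25 and 0.29 in germline replicates and 0.36 and 0.60 in cyst replicates, which averages 0.27 ± 0.02 and 0.48 ± 0.17 in germline and cyst tumours. Other genes differed by 0.10 in germline and 0.18 in cyst tumours. After GC adjustment the germline value for receptors was -0.03 ± 0.001, the opposite sign, and the cyst value 0.38 ± 0.23. For H3K27me3 over bodies the difference was 0.39 ± 0.48 in germline and 0.51 ± 0.08 in cyst tumours (SD, n = 3 each), against -0.05 and 0.18 for other genes. The germline replicates ranged from 0.08 to 0.93, and the mean is 0.11 without replicate 1. The cyst replicates ranged from 0.43 to 0.59, above the 0.22 that was the highest cyst value of other genes. GC adjustment lowered these values to 0.15 ± 0.28 in germline, where replicates ranged from -0.05 to 0.47, and to 0.32 ± 0.16 in cyst tumours. Around starts the H3K27me3 difference was 0.33 ± 0.65 in germline and 0.40 ± 0.43 in cyst tumours, with the lowest replicates at -0.11 in germline and -0.08 in cyst tumours. The H3K9me3 difference was 0.16 ± 0.05 in germline and 0.20 ± 0.02 in cyst tumours, against 0.08 and 0.07 for other genes. The GC-adjusted H3K9me3 value in cyst tumours was 0.07. These differences of medians have no test here. Of the 23 tested X-linked receptors, 1 was above input for H3K4me3 in germline (Or7a, 4.35%) and 3 in cyst tumours (Or2a, Ir7e and Gr10b, 13.0%), against 21.9% and 34.2% of other X-linked genes.

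Pooled fragments downstream of X-linked receptor starts gave a log2 IP/input above the flanks of 0.31 ± 0.14 in germline and 1.01 ± 0.28 in cyst tumours for H3K27me3 (SD, n = 3 each). Receptors on chromosomes 2 and 3 had 0.24 ± 0.11 in germline and 0.07 ± 0.07 in cyst tumours. The X-linked values rest on few fragments, 148, 138 and 119 in the cyst IP libraries and 46, 69 and 71 in their inputs. Germline IP libraries held 34, 69 and 266 fragments there, and germline inputs 103, 60 and 212. Without Or2a the X-linked value in cyst tumours was 0.61 ± 0.38, with replicates at 0.86, 0.80 and 0.17, a value chosen after seeing the data. For H3K4me3 the X-linked receptors had 0.36 ± 0.07 in germline and 0.60 ± 0.14 in cyst tumours, and 0.30 and 0.505 without Or2a.

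**Figure D5:**
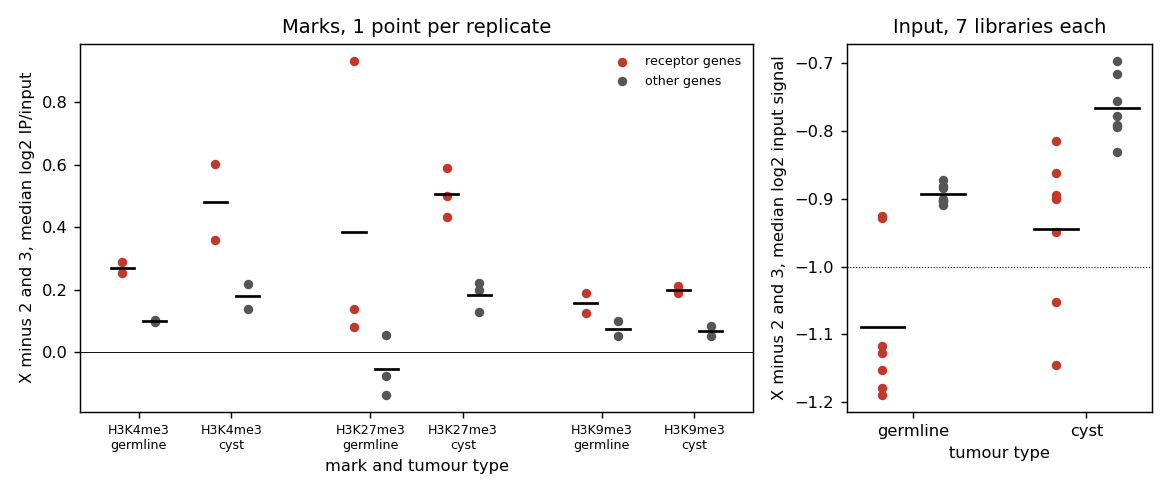
X minus chromosomes 2 and 3 difference of medians for receptor genes and other genes, in log2 IP/input per replicate for each mark (left panel) and in log2 input signal over bodies per library (right panel, dotted line at -1). Germline stands left of cyst, points are libraries or replicates and bars are means. Receptor genes lie above other genes for H3K4me3 and H3K9me3, and the single high germline H3K27me3 point of 0.93 is replicate 1.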

How the data were processed

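Per the labels, chromatin of GFP-tagged histone H3 was released by antibody-directed micrococcal nuclease from pooled tumour testes and precipitated for H3K4me3, H3K27me3 or H3K9me3. Reads were aligned with Bowtie2 2.4.5 to dm6, per the submitters' processing notes. The deposited table holds a signal per 40-bp window every 20 bp in 28 libraries, scaled by the authors so that the autosomal median is near 1. The treatment of duplicate and multiply aligned reads is not given in the sources used here.

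In all 28 libraries the signal steps gave whole reads (100.0% of values within 0.01), from which fragments per 20-bp bin were solved. Fragments were summed over annotated start windows (500 bp to either side, used for H3K4me3) and gene bodies (H3K27me3, H3K9me3), with symbols and sequences from the Release 6 annotation, whose 7 chromosome ends equal those of the table. Genes with a mean of at least 10 fragments per library of a mark were tested with limma 3.58.1 (trend) on log2(signal + 0.1), with all groups of a mark in 1 fit, and p-values were adjusted by Benjamini-Hochberg over all genes. Fold changes on this scale understate those of low genes. Per-replicate log2 IP/input had 1 fragment added. edgeR 4.0.16 on the recovered counts, TMM, a pseudocount of 1, no filter, GC adjustment, a replicate block, other windows and leaving out each replicate were alternatives. Per the labels' protocols, input and IP with the same number were split from 1 preparation, and their deviations from the group means correlated between -0.14 and 0.33. On simulated data with 200 genes changed by a log2 of 2, at least 99% were recovered for each mark and tumour type. That change is larger than most values reported here, so the simulation does not tell how often smaller changes are found. In the data, Or2a at 2.27 for H3K27me3 in cyst tumours was not called (limma adjusted p = 0.0892).

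Named genes were up to 3 per mark, tumour type and direction with the largest called values, a mean of at least 20 fragments and replicates of 1 sign, the same for differences, and a list by sensory role. Members, lists and the alternatives were chosen with earlier results of these data known. Intervals and p-values cover the spread between preparations, which may be partly technical.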

Additional observations from a re-analysis of the deposited data

Results flagged for a closer look

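In 1 of 36 groups of 7 inputs the extreme library stood far from the nearest other, where chance flags about 1 group in 20. It was the highest cyst input at the start of Ir8a, with a log2 signal of 0.42.

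Every germline replicate lay on one side of 0 and every cyst replicate on the other for 6 of 120 pairs of a named gene and a mark. With so few replicates random signs can give this split, and its share over all genes was not counted. For H3K4me3 the difference of the germline mean from the cyst mean of log2 IP/input was 0.38 for Gr28b, 0.56 for Gr5a, 0.70 for Gr64f and -0.65 for Or9a. The limma test of the difference gave these 4 genes adjusted p-values of 0.752, 0.654, 0.487 and 0.538, so that none passed. For H3K9me3 the difference was -0.37 for Gr5a and -0.22 for Or2a, with limma adjusted p-values of 0.446 and 0.705.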

How the results depend on the processing

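Counts of called receptor genes moved with the settings more than medians did. H3K4me3 calls above input in germline tumours were 0 with TMM, with a pseudocount of 1, with GC adjustment and with the replicate block and GC adjustment together, 1 without the filter and 7 in edgeR. Below input in germline they were 33 with TMM, 2 with a pseudocount of 1, 1 with GC adjustment, 2 with the replicate block and GC adjustment and 2 of 81 in the window 40 to 200 bp downstream. Above input in cyst tumours they were 2 with TMM, 1 with a pseudocount of 1, 2 downstream and 4 among genes with no neighbour, and below input 37, 1 and 2, and 1 with GC adjustment with or without the replicate block. Leaving out a replicate gave 0 to 3 above and 1 to 13 below in germline, and 4 to 8 above and 5 to 9 below in cyst tumours. Without germline replicate 1 there were 0 above and 1 below in germline, without germline replicate 2 there were 0 and 8, without cyst replicate 1 there were 4 and 5 in cyst tumours, and without cyst replicate 2 there were 5 below. H3K27me3 calls above input in cyst tumours were 4 with TMM, 5 in edgeR and 1 around starts, and 0 to 19 without a replicate (19 without germline replicate 1). The single H3K9me3 call in germline was lost (0) with a pseudocount of 1, with the replicate block alone or with GC adjustment, and among genes with no neighbour, and ranged from 0 to 1 without a replicate. H3K9me3 calls below input were 2 in germline and 1 in cyst tumours in edgeR, 1 in each around starts, and edgeR called 1 difference. The replicate block alone changed no other count by over 1.5 times. Input differences were 25 with TMM, 25 in edgeR and 0 on shared flow cells around starts, 0 on shared flow cells over bodies, and 5 to 24 and 13 to 31 without a library. Around starts the count was 24 without germline H3K27me3 input 2, 23 without cyst H3K27me3 input 2, 5 without cyst H3K9me3 input 1, and 6 to 8 without any of 8 other libraries. Over bodies it was 13 to 15 without any of 8 libraries, the lowest without germline H3K4me3 input 2.

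X minus chromosomes 2 and 3 for H3K4me3 in germline was 0.20 with means, -0.032 with GC adjustment (reversed) and 0.31 without neighbours, and 0.25 to 0.29 without a replicate, and in cyst tumours 0.36 to 0.60. For H3K27me3 it was 0.32 in cyst tumours with GC adjustment, and without a replicate 0.11 to 0.54 in germline and 0.47 to 0.55 in cyst tumours. For H3K9me3 in germline it was 0.08 without neighbours and 0.13 to 0.19 without a replicate, and in cyst tumours 0.16 with means, 0.07 with GC adjustment, 0.16 without neighbours and 0.19 to 0.21 without a replicate. For input it was -0.95 around starts, -0.86 with GC adjustment and -1.12 to -1.07 without a library in germline, and -0.81, -0.71 and -0.97 to -0.91 in cyst tumours. With GC adjustment, with or without the replicate block, Ir31a and Ir41a reversed in germline, to 0.15 and 0.22. Of 4680 values of named genes under an alternative, 364 that passed no threshold changed sign, 98 lost their call and 50 gained one. Leaving Or2a out of the pooled X-linked starts was chosen after seeing the data. Where no reason is given, the cause was not tested. The shallowest library, the germline H3K27me3 IP of replicate 1, held a median of 7 fragments per receptor start window, and H3K27me3 calls above input in germline tumours were 0 with and without that replicate.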

Other observations

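Of the 179 receptor genes, 79 lie in 27 tandem clusters, with less than 10 kb between neighbours of 1 family. None of these 79 was above input for H3K4me3 in germline tumours and 3 (3.8%) were in cyst tumours, against 3 of 98 (3.06%) and 5 of 98 (5.1%) outside clusters. Medians were -0.06 in germline and -0.10 in cyst tumours inside clusters, and -0.08 and -0.07 outside. In the cluster of 6 sugar receptors from Gr64a to Gr64f on chromosome arm 3L, the median of H3K4me3 was 0.25 and 0.40 in germline replicates and -0.13 and -0.05 in cyst replicates, which did not overlap. Replicates of 17.9% of all genes likewise did not overlap and were higher in germline, and the share of clusters was not counted. For this mark the tumour types were on different flow cells, so the flow cell and the tumour cannot be told apart. In the cluster of 6 genes from Ir7b to Ir7g on the X chromosome, the H3K27me3 median ranged from 0.39 to 1.13 over germline and from 0.56 to 0.76 over cyst replicates. Ir94a, Ir94b and Ir94c, in 1 cluster on 3R, had H3K4me3 medians of -0.61 in both germline replicates and of -0.67 and -0.35 in cyst replicates. These clusters were named after their values were seen and have no test.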
